A study of Mus musculus with 11 samples.

Results

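The 10 genes described here encode the MYC transcription factors (Myc, Mycn and Mycl) and the FOS and JUN subunits of the transcription factor AP-1 (Fos, Fosb, Fosl1, Fosl2, Jun, Junb and Jund). They were chosen by gene name as the members of these families, out of 21846 genes counted by RNA-seq. The libraries came from mouse mammary carcinoma cell lines of FVBhuHER2 mice, virgin females that carry a human HER2 transgene, so that all groups share this transgene. The promoter that drives it is not given in the sources used here. MamBo89 (HER2 stable) came from tumor A and kept HER2. MamBo43 (HER2 labile) came from tumor B and was HER2-positive in culture, and MamBo38 (HER2 loss) was grown from a HER2-negative tumor that MamBo43 had formed after injection into mice. Trastuzumab, an antibody against HER2, was given to cultures at 30 µg/ml either for 60 days or for 30 days followed by 30 days without it.

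The 11 libraries fell into 4 groups. MamBo89 had 4 libraries, of which replicate 1 was an untreated clone of the line, replicate 2 was untreated, replicate 3 had the 30 days of trastuzumab and then 30 days without, and replicate 4 had the 60 days. The identity of replicate 1 as the clone was taken from the study's methods by elimination and not from its label. MamBo43 had 1 untreated library. Trastuzumab-treated MamBo43, called MamBo43 TRT here, had 2 libraries, replicate 1 on the interrupted and replicate 2 on the continuous schedule. The study counts these cells as having lost HER2, though a small share of HER2-positive cells stayed detectable under trastuzumab. Levels of MamBo43 TRT between those of other groups may therefore come from mixed cells, which was not tested. MamBo38 had 4 libraries, replicates 1 and 2 untreated, replicate 3 on the interrupted schedule and replicate 4 on the continuous one. MamBo38 and MamBo43 TRT were HER2-negative (6 libraries), and MamBo89 and MamBo43 were HER2-positive (5 libraries). Each line is 1 cell line from 1 tumor, each schedule was 1 library per line, and nothing in the labels says that libraries of a group came from separate cultures, so the p-values measure only the spread between these libraries, which may be technical.

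MYC proteins bind DNA as dimers with MAX and drive genes of ribosome production, nucleotide and polyamine synthesis and cell cycle entry. AP-1 is a dimer of a JUN protein with a FOS protein or with another JUN protein, and it acts on enhancers of genes for growth, invasion and inflammation. Growth factor receptors such as HER2 signal through RAS and the MAP kinases ERK and JNK, which switch on Fos, Fosb, Jun, Junb and Myc as immediate early genes and also stabilise several of the proteins. Fosl1 (FRA-1) and Fosl2 (FRA-2) are the FOS relatives without the strong activation domain of FOS and FOSB, and Fosl1 is known for its high level in mesenchymal, invasive breast cancer cells. Jund differs from Jun and Junb in being expressed steadily in most cells.

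Library totals ranged from 17040454 to 27127662 counts, and levels are given as CPM, the read counts brought to a common library size after scaling by the trimmed mean of M-values. The mouse gene Erbb2 lay at 117 to 165 CPM in the HER2-positive and at 17.9 to 31.6 CPM in the HER2-negative libraries, and the human transgene was not analysed here. Reads were aligned to the mouse genome, so reads of the transgene may be among those counted for Erbb2, which was not tested. Among genes of at least 5 CPM, the MamBo89 clone differed by at least 2-fold from the other MamBo89 libraries in 1697 to 2202 genes, against 55 to 265 among those others. MamBo38 replicate 2, whose library name carries another numeric code than the other 3 MamBo38 libraries, differed from them in 561 to 725 genes, against 10 to 14 among those 3. All MamBo89 and MamBo43 libraries carry the code of MamBo38 replicate 2, called the common code here. The 2 MamBo43 TRT libraries differed in 579 genes. The labelled origin, mammary carcinoma, was checked with 8 epithelial markers, whose summed level was 2534 to 3927 CPM in MamBo89, 3615 in MamBo43, 301 to 1843 in MamBo43 TRT and 1.39 to 2.73 in MamBo38, where they were close to absent. The 7 fibroblast markers summed to 36.1 to 96.9 CPM in MamBo89, 334 in MamBo43, 6952 to 7453 in MamBo43 TRT and 3805 to 4542 in MamBo38, with Lum at 0 in MamBo38, MamBo43 and MamBo43 TRT and Dcn, Lum and Thy1 at 0 in MamBo89. The 5 endothelial markers summed to at most 0.890 CPM in any group, and the 7 immune markers to 1.13 to 49.9 CPM with Cd3e and Adgre1 at 0 in every group. The part of these markers in the results was not tested, and in bulk samples fewer cells of a type and less RNA per cell cannot be told apart.

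The HER2-negative cells had more Myc, Fosl1 and Fosl2 RNA and less Fos and Fosb RNA than the HER2-positive cells. A gene was called where edgeR's quasi-likelihood test gave a Benjamini-Hochberg adjusted p under 0.1 over all genes tested and a change of at least 1 on the log2 scale, in either direction. Of the 9 members that passed the filter on low counts, 3 were called higher and 2 lower in the HER2-negative libraries, while of all 12364 genes tested 32.8% were called, 15.8% higher and 17% lower. The levels of 3 members (Myc, Fosl1 and Junb) did not overlap between the 2 sets of libraries, against 34.9% of all genes tested. This comparison moved a large part of the genome, and nothing particular to the members is read from either count. Every HER2-negative library came from tumor B, and every HER2-positive one except MamBo43 came from tumor A. HER2 status and tumor of origin therefore largely coincide in this comparison. In all that follows, log2 fold changes are given ± their standard error (SE). When the library code was fitted as a covariate, 3 members were called in place of 5, since Fosb and Fosl2 missed the threshold. In the libraries of the common code alone Fosb, Fosl2 and Fos missed it, and Mycn, which passed the filter there, was called lower beside the higher calls of Myc and Fosl1 (Fos had a log2 fold change -1.51, adjusted p = 0.141).

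**Figure D1:**
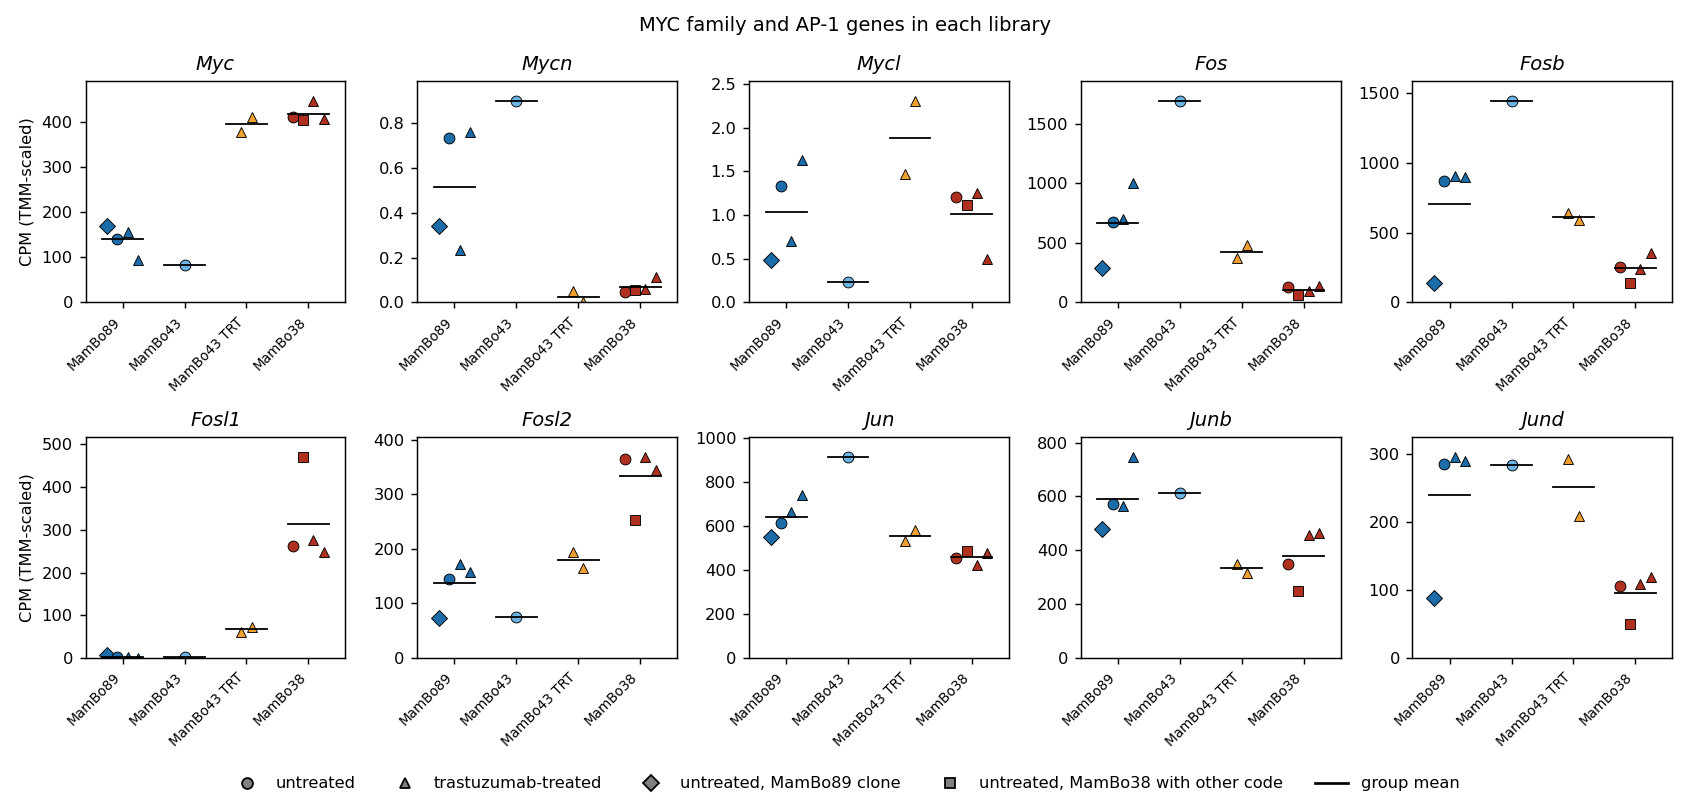
Level of each of the 10 genes in each of the 11 libraries, in CPM (vertical axes start at 0 and differ between panels), with the groups along the horizontal axis, 1 point per library and a line at the group mean. Triangles are trastuzumab-treated libraries, the diamond is the MamBo89 clone and the square is MamBo38 replicate 2. Myc and Fosl1 are low in all HER2-positive and high in all HER2-negative libraries, while Fos is lowest in the 4 MamBo38 libraries.

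Myc (ENSMUSG00000022346, chr15:61985391-61990374, plus strand, GRCm38) is the family member expressed in most dividing cells. Its level was 168, 141, 155 and 94.3 CPM in MamBo89 replicates 1 to 4 and 82.0 CPM in MamBo43. It was 377 and 411 CPM in the 2 MamBo43 TRT libraries and 410.3, 404, 446 and 407 CPM in MamBo38 replicates 1 to 4. Every HER2-negative library therefore lay above every HER2-positive one, and MamBo43 was the lowest of all. Myc was 3.18-fold higher in HER2-negative libraries (log2 fold change 1.67 ± 0.19 (SE), adjusted p = 3.85e-05), and it was called under every alternative tried for this comparison. Between the lines it was higher in MamBo38 than in MamBo89 (1.58 ± 0.16, adjusted p = 1.40e-05), in MamBo43 TRT than in MamBo43 (2.26 ± 0.31, adjusted p = 6.92e-04) and in MamBo38 than in MamBo43 (2.34 ± 0.30, adjusted p = 1.49e-04). These comparisons share libraries, so they are values side by side and not independent results. In order of mean level, MamBo38 (417 ± 19.5 CPM, SD, n = 4) and MamBo43 TRT were neighbours that did not differ beyond their spread (-0.08 ± 0.20, adjusted p = 0.801), and MamBo89 (139.6 ± 32.2 CPM, SD, n = 4) and MamBo43 differed by less than the 2-fold the rule asks for (-0.77 ± 0.27, adjusted p = 0.0715).

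Mycn and Mycl, the paralogs known from the developing nervous system and from some small cell tumors, were close to absent, and Myc made up 98.2% to 99.9% of the family's level per kilobase of exon in every library. Mycn had 7, 16, 4 and 14 counts in MamBo89, 23 in MamBo43, 1 and 0 in MamBo43 TRT and 1, 1, 1 and 3 in MamBo38. All HER2-negative libraries were at or under 3 counts and all HER2-positive ones above that, the opposite of the order for Myc. Summed over libraries and scaled for size, the ratio of MamBo89 to MamBo38 was 7.19 with a 95% interval from 3.04 to 20.7 (41 against 6 counts), and that of MamBo43 to MamBo38 was 12.3 with an interval from 4.86 to 36.9 (23 against 6). These intervals are exact and cover counting error only. Mycn did not pass the filter in the comparison by HER2 status and was called lower in MamBo38 than in MamBo89 (adjusted p = 0.00357), in MamBo38 than in MamBo43 (adjusted p = 0.00513) and in MamBo43 TRT than in MamBo43 (adjusted p = 0.00759). Mycl had 10, 29, 12 and 30 counts in MamBo89, 6 in MamBo43, 30 and 60 in MamBo43 TRT and 25, 20, 21 and 13 in MamBo38. Its lowest library was MamBo43 and its highest a MamBo43 TRT library, with the other lines overlapping between them. Mycl was not called by HER2 status (0.57 ± 0.52, adjusted p = 0.380). With the tumor of origin as a covariate it was called higher by HER2 status (2.44), but MamBo43 is the only HER2-positive library of tumor B. Mycl was called higher in MamBo43 TRT than in MamBo43 (2.98 ± 0.96, adjusted p = 0.0380), where the summed counts were 90 and 6 and the ratio 8.25 (95% interval 3.64 to 23.1). That call was lost without MamBo43 TRT replicate 2 (2.62, adjusted p = 0.120). The call of Mycl from MamBo43 to MamBo38 (2.07 ± 0.89, adjusted p = 0.0852) was lost without any 1 of 6 libraries, and its estimate from MamBo89 to MamBo38 was near 0 (-0.05 ± 0.47, adjusted p = 0.937) and changed sign without some libraries.

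Fos (ENSMUSG00000021250, chr12:85473890-85477273, plus strand, GRCm38) and Fosb (ENSMUSG00000003545, chr7:19302696-19310051, minus strand) are the strongly activating FOS proteins. In the comparison by HER2 status they had estimates below 0, as did Jun, Junb and Jund. The 150 bases upstream of the RefSeq start of 4 of them are shown because these genes are known for responsive elements for CREB, ATF and AP-1 proteins in their promoters, and because they had lower estimates together. RefSeq windows of the build GRCm38.p6, from 250 bases before to 50 after the start, were found for 8 of the 10 members (Fos, Fosb, Fosl2, Jun, Junb, Jund, Mycn and Mycl). The bases lie at chr12:85473740-85473889 on the plus strand for Fos, chr7:19310046-19310195 on the minus strand for Fosb, chr4:95052223-95052372 on the minus strand for Jun and chr8:84978749-84978898 on the minus strand for Junb, and each is read 5′ to 3′ on the gene's own strand. Capitals mark TGACG, the CREB and ATF core, or TGACATCA, the variant AP-1 site of Jun.
Fos: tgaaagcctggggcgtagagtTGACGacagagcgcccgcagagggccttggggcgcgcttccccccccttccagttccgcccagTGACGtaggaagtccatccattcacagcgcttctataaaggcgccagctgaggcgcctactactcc
Fosb: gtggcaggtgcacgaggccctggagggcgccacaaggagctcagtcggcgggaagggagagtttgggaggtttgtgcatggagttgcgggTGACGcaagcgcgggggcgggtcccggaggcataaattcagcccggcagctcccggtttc
Jun: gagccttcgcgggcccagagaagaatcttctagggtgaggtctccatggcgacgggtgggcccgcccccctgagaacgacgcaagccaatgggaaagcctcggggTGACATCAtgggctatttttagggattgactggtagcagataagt
Junb: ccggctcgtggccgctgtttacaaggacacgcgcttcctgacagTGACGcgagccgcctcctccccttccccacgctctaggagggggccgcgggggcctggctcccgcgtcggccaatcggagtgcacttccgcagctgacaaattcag
TGACG lay 129 and 66 bases upstream of the Fos start, 60 bases upstream of that of Fosb and 106 bases upstream of that of Junb, and TGACATCA began 45 bases upstream of the Jun start. Both strands of the 8 windows were searched for the AP-1 sites TGANTCA and TGACATCA, the CREB and ATF site TGACGTCA with its core TGACG, the E-box CACGTG that MYC and MAX bind, and the CArG box of serum response factor, and the matches named were the only ones. Sites outside the windows were not searched. The Jund window (chr8:70697489-70697788) ends before the position given below for the counted gene, so it may not hold the promoter of that gene. Over all 32851 RefSeq windows of that length, TGACG was present in 20.8%, TGACATCA in 3.62%, TGANTCA in 7.81%, TGACGTCA in 1.79%, CACGTG in 7.15% and the CArG box in 1.63%. TGACG is contained in TGACGTCA, and it was added to the search after the 8 windows had been seen. A match describes letters and is not evidence of a site in use.

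Fos was at 285, 673, 699 and 999 CPM in MamBo89 replicates 1 to 4 and at 1689 CPM in MamBo43. It was at 372 and 481 CPM in MamBo43 TRT and at 127, 63.6, 97.0 and 136 CPM in MamBo38. The 4 MamBo38 libraries were the lowest of all, MamBo43 TRT lay between them and most HER2-positive libraries, and the sets overlapped because the MamBo89 clone was below both MamBo43 TRT libraries. Fos fell by HER2 status (log2 fold change -2.04 ± 0.58 (SE), adjusted p = 0.0125), from MamBo89 to MamBo38 (-2.65 ± 0.37, adjusted p = 1.06e-04), from MamBo43 to MamBo38 (-4.00 ± 0.47, adjusted p = 8.14e-05) and from MamBo43 to MamBo43 TRT (-1.99 ± 0.57, adjusted p = 0.0243). The last of these missed the threshold without MamBo43 TRT replicate 1 (-1.84, adjusted p = 0.101). Fosb, whose products include the long-lived splice form ΔFosB, was at 142, 869.8, 903 and 899.9 CPM in MamBo89, 1442 in MamBo43, 642 and 588 in MamBo43 TRT and 257, 139, 242 and 352 in MamBo38. The MamBo89 clone was as low as MamBo38, while the other 4 HER2-positive libraries were above every HER2-negative one. Fosb was called lower in HER2-negative libraries (-1.21 ± 0.52, adjusted p = 0.0697) by a narrow margin, since leaving out any 1 of 8 of the 11 libraries ended the call, and the estimates without each library in turn ran from -1.47 to -0.94. It fell from MamBo89 to MamBo38 (-1.51 ± 0.49, adjusted p = 0.0193) and from MamBo43 to MamBo38 (-2.55 ± 0.66, adjusted p = 0.0106), and was not called between MamBo43 and MamBo43 TRT (-1.23 ± 0.80, adjusted p = 0.267), where it was called without the MamBo89 clone (-1.26, adjusted p = 0.0210) or in a fit of these 2 groups alone. Both alternatives, and DESeq2, also called it between MamBo43 TRT and MamBo38.

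Fosl1 (ENSMUSG00000024912, chr19:5447547-5455946, plus strand, GRCm38) showed the widest range among the members other than Mycn and Mycl. It was at 6.43, 1.34, 1.57 and 1.03 CPM in MamBo89 replicates 1 to 4 and at 3.21 CPM in MamBo43. It was at 61.7 and 73.1 CPM in MamBo43 TRT and at 262, 471, 276 and 248 CPM in MamBo38. The 2 sets of libraries were far apart, with MamBo43 TRT between the HER2-positive libraries and MamBo38. Fosl1 was 84.7-fold higher in HER2-negative libraries (log2 fold change 6.40 ± 0.76 (SE), adjusted p = 5.74e-05) and was called under every alternative tried for this comparison. It was also higher in MamBo38 than in MamBo89 (6.90 ± 0.59, adjusted p = 3.24e-06), in MamBo38 than in MamBo43 (6.61 ± 1.10, adjusted p = 8.25e-04) and in MamBo43 TRT than in MamBo43 (4.39 ± 1.005, adjusted p = 0.00894). It was lower in MamBo43 TRT than in MamBo38 (-2.22 ± 0.61, adjusted p = 0.0203), a call lost without either MamBo43 TRT library. The libraries were made without strand, and 50.2% of the 75-base read positions in Fosl1 exons overlap Ccdc85b on the opposite strand, so that reads of the pair cannot be told apart. Ccdc85b stood at 9.54 to 12.6 CPM in MamBo89, 21.9 in MamBo43, 30.8 to 34.2 in MamBo43 TRT and 92.0 to 123 in MamBo38, and its log2 fold change by HER2 status was 2.65 ± 0.43 (adjusted p = 3.95e-04).

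Fosl2 (ENSMUSG00000029135, chr5:32135801-32157842, plus strand) moved in the same direction as Fosl1 over a narrower range. It was at 72.8, 145, 173 and 158 CPM in MamBo89, 75.1 in MamBo43, 194 and 165 in MamBo43 TRT and 364, 253, 369 and 346 in MamBo38. All 4 MamBo38 libraries were above every other library, while MamBo43 TRT replicate 2 lay below the highest MamBo89 library. Fosl2 was 2.25-fold higher in HER2-negative libraries (log2 fold change 1.17 ± 0.31 (SE), adjusted p = 0.00806), higher in MamBo38 than in MamBo89 (1.28 ± 0.24, adjusted p = 0.00101) and than in MamBo43 (2.15 ± 0.45, adjusted p = 0.00311), and higher in MamBo43 TRT than in MamBo43 (1.25 ± 0.44, adjusted p = 0.0542). The last call was lost without MamBo43 TRT replicate 1, and after adjustment for the library code the change by HER2 status was 0.70 and that from MamBo89 to MamBo38 0.89, neither of them called.

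Levels per kilobase of exon allow the FOS genes to be set against each other within a library. On this scale Fos made up 64.5% to 78.4% of the FOS family in MamBo89, 74.9% in MamBo43, 50.8% to 58.1% in MamBo43 TRT and 8.80% to 21.3% in MamBo38. Fosl1 made up 0.0868% to 2.04% in MamBo89, 0.165% in MamBo43, 9.74% to 10.2% in MamBo43 TRT and 44.8% to 75.5% in MamBo38. The leading FOS gene was therefore Fos in 7 libraries and Fosl1 in the 4 of MamBo38. The ratio of Fos to Fosl1 per kilobase was 384 to 835 in MamBo89 replicates 2 to 4, 38.4 in the clone, 455 in MamBo43, 5.22 and 5.68 in MamBo43 TRT, and 0.117 to 0.474 in MamBo38. The summed level of the 4 FOS genes was 155 CPM per kilobase in the MamBo89 clone, 441 to 585 in the other MamBo89 libraries, 958 in MamBo43, 312 to 352 in MamBo43 TRT and 254 to 307 in MamBo38. The 4 MamBo38 sums lay above the clone and below the other MamBo89 libraries. The share of Fosl1 is subject to the reads it shares with Ccdc85b.

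**Figure D2:**
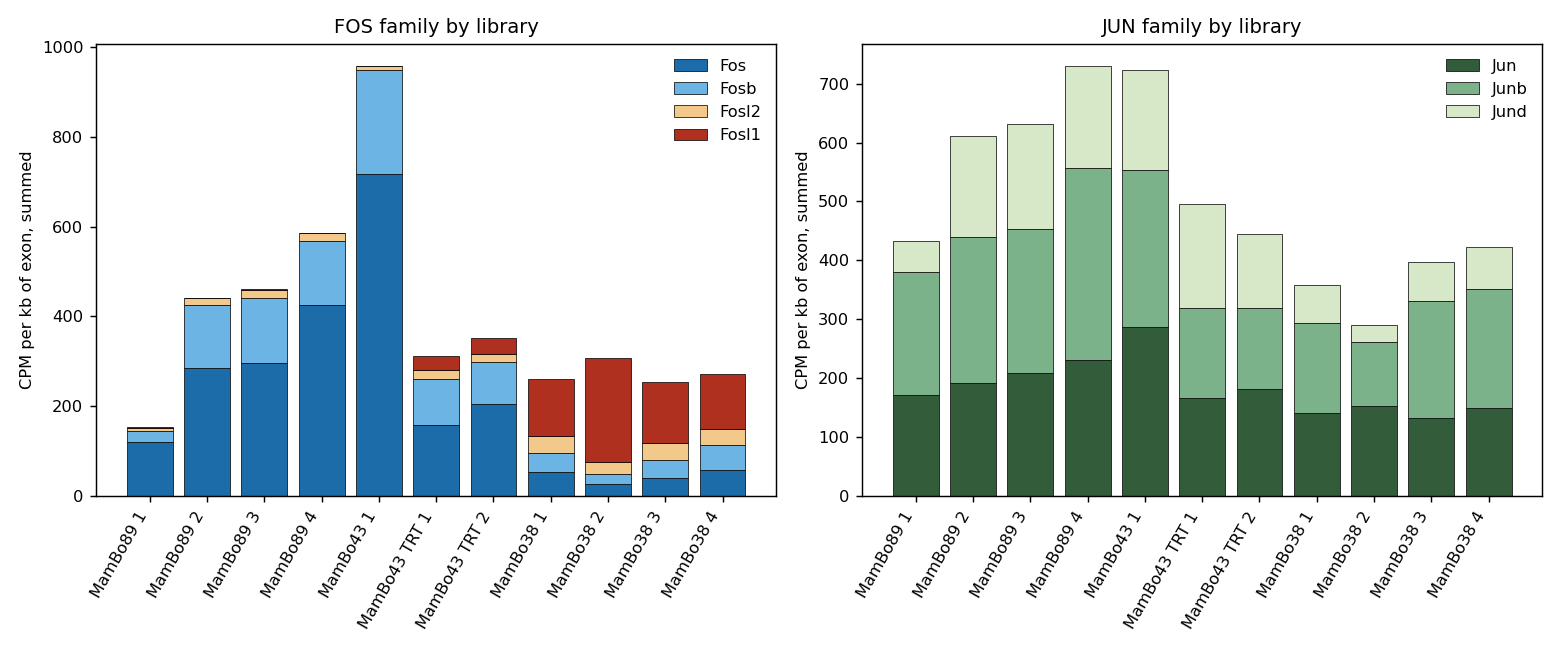
Levels of the FOS genes (left) and JUN genes (right) in each library in CPM per kilobase of exon, stacked so that the height of a bar is the family's sum. Fos is the leading FOS gene in the MamBo89, MamBo43 and MamBo43 TRT libraries, and Fosl1 is in the 4 MamBo38 libraries (44.8% to 75.5% of the FOS sum).

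The JUN genes encode the partners with which FOS proteins form AP-1. Jun (ENSMUSG00000052684, chr4:95049034-95052222, minus strand, GRCm38), the strongest activator of the JUN proteins, was at 550.0, 613, 665 and 739.6 CPM in MamBo89, 916 in MamBo43, 533 and 581 in MamBo43 TRT and 453, 487, 424 and 479 in MamBo38. The 4 MamBo38 libraries were the lowest and MamBo43 the highest. Jun was not called by HER2 status because its change was under 2-fold (-0.51 ± 0.15, adjusted p = 0.0136), and the same held from MamBo89 to MamBo38 (-0.48 ± 0.12, adjusted p = 0.00482), from MamBo43 to MamBo43 TRT (-0.72 ± 0.20, adjusted p = 0.0214) and from MamBo43 to MamBo38 (-0.99 ± 0.18, adjusted p = 0.00122). The last of these passed 2-fold without any 1 of 4 libraries, among them the MamBo89 clone (-1.03). Junb (ENSMUSG00000052837, chr8:84974484-84978718, minus strand), which can hold Jun in check, was at 478, 571, 563 and 748 CPM in MamBo89, 611 in MamBo43, 349.8 and 316 in MamBo43 TRT and 349, 249, 458 and 463 in MamBo38. All HER2-negative libraries lay below all HER2-positive ones, and the change was again under 2-fold (-0.72 ± 0.18, adjusted p = 0.00600). After adjustment for the library code Junb was called lower in MamBo38 than in MamBo89 (-1.24, against -0.64 without it), and lower in MamBo38 than in MamBo43 (-1.30, adjusted p = 0.0137, against -0.69 ± 0.31, adjusted p = 0.0990 without it). Jund (ENSMUSG00000071076, chr8:70698949-70700616, plus strand) was at 88.9, 286, 296 and 289.9 CPM in MamBo89, 284 in MamBo43, 293 and 209 in MamBo43 TRT and 106, 49.4, 109 and 119 in MamBo38. The 4 MamBo38 libraries and the MamBo89 clone were low, and the other 6 libraries were above them all. Jund was not called by HER2 status (-0.76 ± 0.43, adjusted p = 0.160), though it was without MamBo43 TRT replicate 1 (-1.07, adjusted p = 0.0455). It was lower in MamBo38 than in MamBo89 (-1.33 ± 0.38, adjusted p = 0.0109) and than in MamBo43 (-1.57 ± 0.54, adjusted p = 0.0382). Of the read positions in Jund exons, 45.9% overlap the antisense gene Gm11175, for which no value is given here, against 5.07% for Jun and 4.74% for Junb with their antisense genes. In MamBo38 the mean levels per kilobase were 165 CPM for Junb, 145 for Jun and 57.6 for Jund, beside 154 for Fosl1 and 153 for Myc. In MamBo43 they were 266, 287 and 170 CPM per kilobase in the same order, beside 718 for Fos.

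From MamBo89 to MamBo38, 3 members were called higher and 4 lower of 10 tested, against 41.9% of all 13782 genes tested (19.9% higher and 22% lower), and 7 did not overlap, against 59.3%. From MamBo43 to MamBo38, 4 were called higher and 4 lower, against 35.9% of all genes (17.4% higher and 18.5% lower), and all 10 did not overlap, against 81.1%, a share that is high because 1 library stands on one side. From MamBo43 to MamBo43 TRT, 4 were called higher (Myc, Mycl, Fosl1 and Fosl2) and 2 lower (Fos and Mycn), against 29.1% of all genes (13.6% higher and 15.5% lower), and 9 did not overlap, against 88.5%. The single MamBo43 library was assumed to vary like the other groups. Trastuzumab and the loss of HER2 cannot be told apart in this comparison, and the epithelial, myoepithelial and fibroblast marker sums moved with it. The comparison of MamBo38 with MamBo43 uses the same MamBo43 library.

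Between the 2 HER2-negative groups, MamBo43 TRT and MamBo38, 2 members were called higher and 1 lower of 10 tested, against 20.4% of all genes (10.2% in each direction), and 7 did not overlap, against 58.7%. Fos was 4.03-fold higher in MamBo43 TRT (log2 fold change 2.01 ± 0.41 (SE), adjusted p = 0.00498) and Jund 2.62-fold higher (1.39 ± 0.44, adjusted p = 0.0383), while Fosl1 was lower as given above. Fos was the only one of the 3 still called without MamBo43 TRT replicate 1, when 1 library was left in that group. Between the 2 HER2-positive lines, 1 member was called higher and 0 lower, against 18.9% of all genes (11% higher and 7.86% lower), and 6 did not overlap, against 60.5%. Fos was 2.54-fold higher in MamBo43 than in MamBo89 (log2 fold change 1.35 ± 0.50 (SE), adjusted p = 0.0864), a call that was lost at an adjusted p of 0.05, in a fit of these 2 groups alone, or without any 1 of 6 libraries. Without the MamBo89 clone 4 members were called between these lines, Fos and Fosl1 higher in MamBo43 and Mycl and Fosl2 lower. Myc (-0.77 ± 0.27, adjusted p = 0.0715) and Jun (0.51 ± 0.18, adjusted p = 0.0737) did not reach 2-fold.

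**Figure D3:**
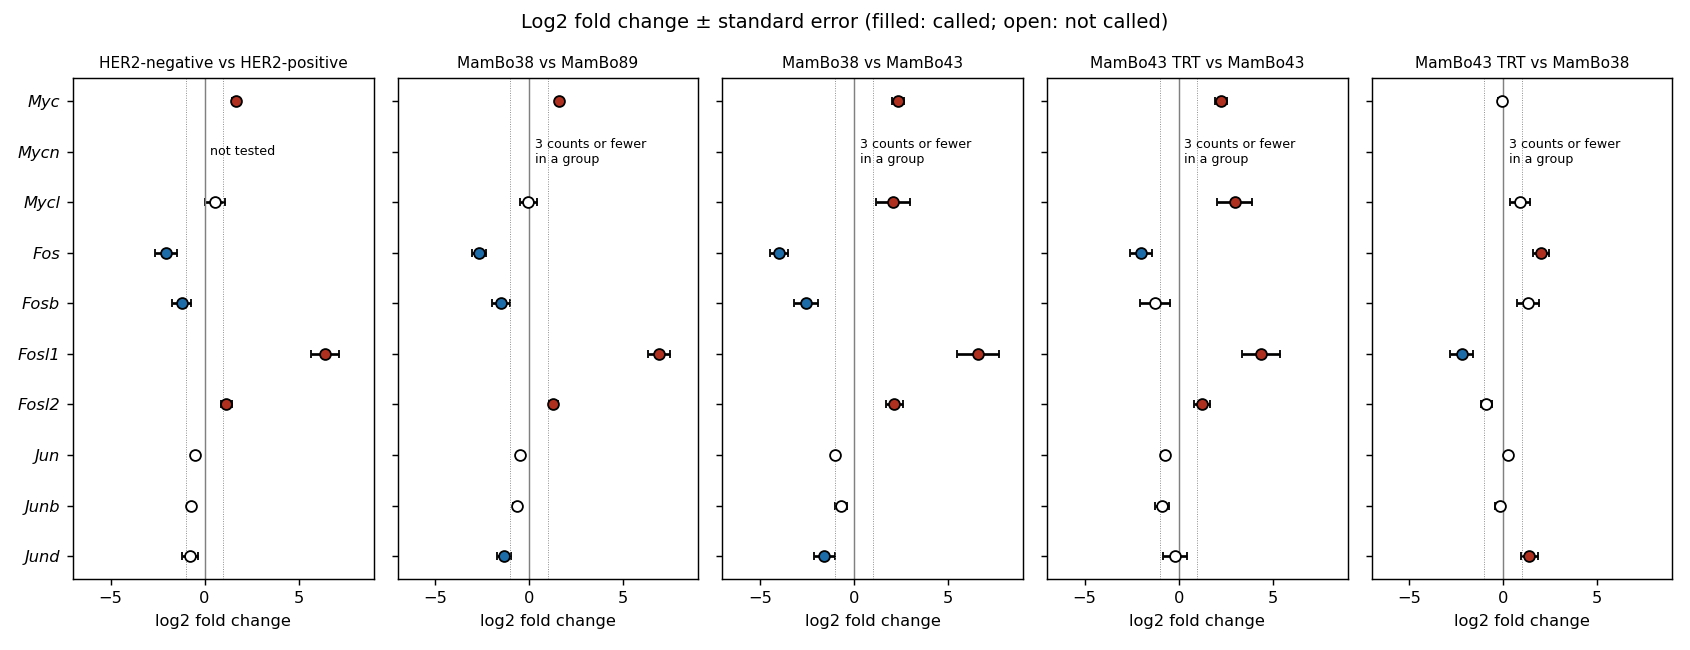
Log2 fold changes of the members with their standard errors in the comparison by HER2 status and between the lines (horizontal axis, log2 scale), with filled points for called members and open points for the others. Mycn is left out of the points because a group had 3 counts or fewer. Fosl1 and Myc lie to the right and Fos to the left in MamBo38 against both HER2-positive lines and in MamBo43 TRT against MamBo43.

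No member was called for trastuzumab in the line that kept HER2 or in the line without it. In MamBo89, 2 treated against 2 untreated libraries gave 0 of 10 members called by edgeR, against 0% of 13782 genes, and 1 member (Fosl1, log2 fold change -1.56) and 724 genes at an unadjusted p under 0.05. DESeq2 called 0 members and 29 genes. The levels of 5 members did not overlap between treated and untreated libraries, against 26% of all genes. Fos stood at 285 and 673 CPM untreated and at 699 and 999 CPM treated (0.83 ± 0.45, adjusted p = 0.721), and Myc at 168 and 141 CPM untreated and at 155 and 94.3 CPM treated (-0.31 ± 0.23, adjusted p = 0.721). The 2 untreated libraries include the clone, and without the other untreated library 5 members and 2148 genes were called. In MamBo38 edgeR called 0 of 10 members, against 0% of genes, with 1 member (Junb, 0.61) and 230 genes at an unadjusted p under 0.05, and DESeq2 called 0 members and 1 gene. The levels of 3 members did not overlap there, against 40.2% of all genes. Fos was 0.28 ± 0.45, adjusted p = 1 there and Myc 0.06 ± 0.23, adjusted p = 1, on the log2 scale. The difference between the 2 lines in the treatment effect was called for 0 members, against 0% of genes, with 0 members and 302 genes at an unadjusted p under 0.05 (Myc 0.36 ± 0.33, adjusted p = 1, and Fos -0.55 ± 0.63, adjusted p = 1). DESeq2 called 0 members and 2 genes for this difference. Of the untreated MamBo38 libraries, replicate 2 has the common code, while replicate 1 has the code of the treated libraries. Replicate 2 differed from the other 3 MamBo38 libraries in 561 to 725 genes, against 10 to 14 among those 3. The untreated spread in MamBo38 includes that difference. The 0 calls in MamBo38 and between the lines therefore cannot tell an absent effect from a masked one.

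Genes of the MYC network were counted from lists of known partners and targets, and the background is again 32.8% of all genes by HER2 status and 29.1% from MamBo43 to MamBo43 TRT, here and for the lists that follow. Of 10 MAX network partners, 0 were called higher and 1 lower by HER2 status, namely Mxd1, a repressor that competes with MYC for MAX (-1.69 ± 0.27, adjusted p = 3.81e-04; 26.2 to 42.3 CPM in MamBo89, 16.4 in MamBo43, 12.3 to 13.7 in MamBo43 TRT and 6.77 to 9.07 in MamBo38). From MamBo43 to MamBo43 TRT the 1 called was another repressor of this family, Mxd4 (-1.91 ± 0.49, adjusted p = 0.0147). Mxd4 was high in MamBo43 alone (119 CPM), against 23.8 to 72.7 CPM in MamBo89, 24.2 to 39.5 in MamBo43 TRT and 31.8 to 45.6 in MamBo38. Of 24 MYC target genes, 5 were called higher and 0 lower by HER2 status, with a median log2 fold change of 0.54 against -0.04 for all genes. They included Gnl3, a nucleolar GTPase (1.54 ± 0.30, adjusted p = 0.00125; 39.3 to 58.3 CPM in MamBo89, 94.3 in MamBo43, 243 to 250.1 in MamBo43 TRT and 107 to 141 in MamBo38), and Srm, the spermidine synthase (1.50 ± 0.33, adjusted p = 0.00301; 24.3 to 42.3 CPM in MamBo89, 41.4 in MamBo43, 145 to 206 in MamBo43 TRT and 65.3 to 73.6 in MamBo38). Cdk4, a kinase of the G1 phase (1.22 ± 0.17, adjusted p = 1.68e-04), and Odc1, the first enzyme of polyamine synthesis (1.16 ± 0.33, adjusted p = 0.0127), were also called. From MamBo89 to MamBo38, where Myc was called higher, only 2 of the 24 were called higher and 0 lower, against 41.9% of all genes. Their median was 0.07, against -0.07 for all genes. From MamBo43 to MamBo38, where Myc was also called higher, the counts were again 2 and 0, against 35.9% of all genes. The median there was 0.03, against 0.00 for all genes. Between MamBo43 TRT and MamBo38, where Myc was not called, 7 of the 24 were higher in MamBo43 TRT and 1 lower, against 20.4% of all genes. From MamBo43 to MamBo43 TRT 7 of 24 were called higher and 1 lower, with a median of 0.92 against 0.00 for all genes. The largest rise was that of Ccnd2, a D-type cyclin (4.54 ± 0.59, adjusted p = 5.46e-04). Ccnd2 was low in MamBo43 alone (8.88 CPM), against 105 to 259 CPM in MamBo89, 169 to 244 in MamBo43 TRT and 191 to 227 in MamBo38. By HER2 status its change was 0.73 and not called. Tert, the telomerase subunit, was the one that fell (-2.59 ± 0.78, adjusted p = 0.0294). The call of Tert was lost without either MamBo43 TRT library (adjusted p = 0.101 and 0.104). With the tumor of origin as a covariate the change by HER2 status was not called for Mxd1 (-0.78, adjusted p = 0.139), Gnl3, Srm, Cdk4 or Odc1.

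Of 16 ATF, BATF and MAF proteins, which pair with FOS or JUN or bind related sites, 6 were called higher by HER2 status, with a median of 0.26, and calls in the other direction are not given here. Batf, an AP-1 partner best known from lymphocytes, had CPM of 0 to 0.0487 in MamBo89, 0 in MamBo43, 1.22 to 4.41 in MamBo43 TRT and 3.84 to 7.88 in MamBo38, and its relative Batf2 had 0 to 0.109, 0, 0.490 to 0.767 and 1.06 to 3.67 CPM in the same order. Both were called higher (adjusted p = 1.93e-05 and 4.53e-04), with HER2-positive libraries near 0. Maf, a bZIP factor that binds a longer site, rose (3.16 ± 0.65, adjusted p = 0.00202). From MamBo43 to MamBo43 TRT, 7 of the 16 were called higher, with a median of 0.78, Maf (4.33 ± 1.08, adjusted p = 0.0130) among them.

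Upstream of the members are the MAP kinases, and among the genes that ERK signalling switches on are its own feedback phosphatases and ETS factors. The shares called in both lists are to be read against the background given above. Of 14 MAP kinase genes tested of 15, 0 were called higher and 2 lower by HER2 status, Araf, a RAF kinase (-1.29 ± 0.15, adjusted p = 5.86e-05), and Map3k1 (-1.02 ± 0.22, adjusted p = 0.00231), with a median of -0.17. The change of Map3k1 fell under 2-fold without MamBo89 replicate 1 (-0.81) or without either MamBo43 TRT library (-0.94 and -0.96). Of 13 ERK feedback and output genes, 1 was called higher and 4 lower, although the median of the list was 0.19 on the log2 scale. Dusp6, a phosphatase that switches off ERK, fell (-1.68 ± 0.25, adjusted p = 2.31e-04; 447 to 765 CPM in MamBo89, 338 in MamBo43, 107 to 108 in MamBo43 TRT and 159.8 to 231 in MamBo38), as did Etv4 (-1.46 ± 0.20, adjusted p = 1.54e-04), Dusp5 (-1.31 ± 0.29, adjusted p = 0.00289) and Etv5 (-1.19 ± 0.19, adjusted p = 3.19e-04), while Etv1, at 0.414 to 1.41 CPM in MamBo89, 54.5 in MamBo43, 41.1 in MamBo43 TRT and 89.1 to 149 in MamBo38, was called higher (2.99 ± 1.22, adjusted p = 0.0595). The level of Etv1 was high in all libraries from tumor B, and its call was lost with the tumor of origin as a covariate (0.77, adjusted p = 0.460), with the library code (2.28, adjusted p = 0.187), in the common code alone and without MamBo89 replicate 3 or 4. From MamBo43 to MamBo43 TRT 4 of these 13 fell and 0 rose, Dusp6 (-1.65 ± 0.31, adjusted p = 0.00353) and Etv5 (-1.49 ± 0.24, adjusted p = 0.00161) among them. Of 14 other immediate early genes, 2 were called higher and 7 lower by HER2 status, with a median of -1.11, and 0 and 8 of the 14 from MamBo43 to MamBo43 TRT, with a median of -1.22. Egr1, a zinc finger factor induced with Fos, was 1015 to 2053 CPM in MamBo89, 1363 in MamBo43, 410.0 to 499 in MamBo43 TRT and 444 to 684 in MamBo38 (-1.36 ± 0.21, adjusted p = 3.09e-04). Egr2 (-2.12 ± 0.36, adjusted p = 5.64e-04), Klf2 (-1.65 ± 0.52, adjusted p = 0.0206) and Ier3 (-1.46 ± 0.23, adjusted p = 3.16e-04) were called lower as well, and from MamBo43 to MamBo43 TRT Nr4a1, an orphan nuclear receptor, had the lowest estimate (-3.38 ± 0.69, adjusted p = 0.00499). The 2 that were higher were Klf4 (1.01) and Dusp1 (1.145), named after their values were seen. Of 6 serum response factors and cofactors, which act on the CArG box of these genes, 1 was higher and 1 lower by HER2 status, Elk3 (1.53 ± 0.32, adjusted p = 0.00219) and Elk1 (-1.08 ± 0.23, adjusted p = 0.00244), with a median of -0.15, and 1 fell from MamBo43 to MamBo43 TRT, Mrtfb (-1.31 ± 0.23, adjusted p = 0.00259). With the tumor of origin as a covariate the changes by HER2 status of Egr2 (-1.08, adjusted p = 0.145), Ier3 (-0.99), Etv4 (-0.74), Araf (-0.90), Map3k1 (-0.79), Elk3 (adjusted p = 0.138) and Elk1 were not called either.

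Of the known AP-1 target genes more were called higher than lower. Of 15, 9 were called higher and 2 lower by HER2 status, with a median log2 fold change of 2.12, and 7 and 0 from MamBo43 to MamBo43 TRT, with a median of 1.56. Itga5, the fibronectin receptor subunit, was 9.25 to 18.0 CPM in MamBo89, 16.4 in MamBo43, 118 to 167 in MamBo43 TRT and 385 to 624 in MamBo38 (4.60 ± 0.45, adjusted p = 1.87e-05). Plau, the urokinase protease, was 0.779 to 1.69 CPM in MamBo89, 8.18 in MamBo43, 16.7 to 33.3 in MamBo43 TRT and 43.6 to 79.3 in MamBo38 (4.29 ± 0.74, adjusted p = 6.25e-04). Il6, the inflammatory cytokine (5.69 ± 0.85, adjusted p = 2.42e-04), and Mmp9, a matrix protease (5.60 ± 1.04, adjusted p = 9.99e-04), rose from CPM of at most 1.28 and 0.430 in the HER2-positive libraries. From MamBo43 to MamBo43 TRT, Il6 (7.05 ± 1.88, adjusted p = 0.0173) and Timp1, an inhibitor of matrix proteases (5.21 ± 1.93, adjusted p = 0.0638), had the highest estimates. The call of Timp1 was lost without MamBo43 TRT replicate 2 (4.62, adjusted p = 0.152). The 2 lower by HER2 status were Ccnd1 (-1.15) and Lif (-1.06), named after their values were seen. Most of the genes that rose are also expressed by mesenchymal cells, whose marker sums moved with HER2 status, and the part of that was not tested.

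**Figure D4:**
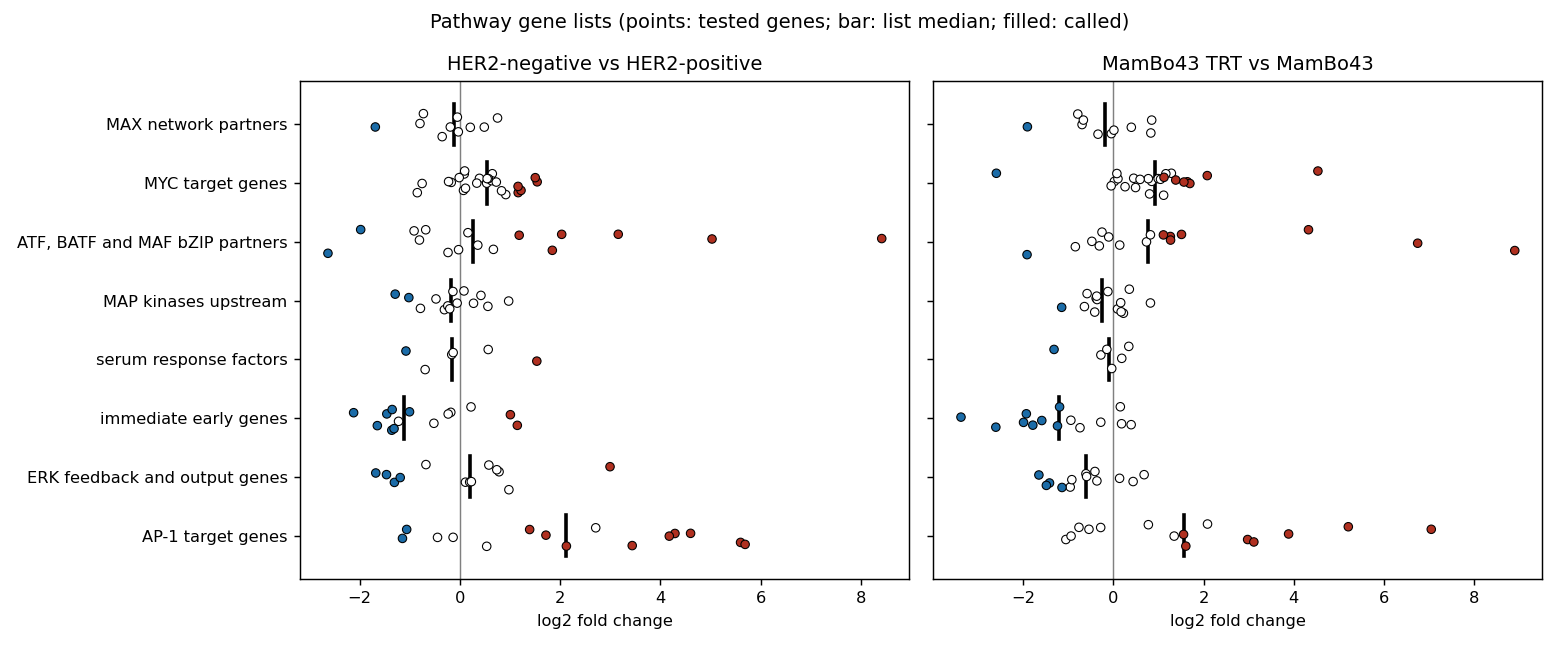
Median log2 fold change of each gene list in the comparison by HER2 status and from MamBo43 to MamBo43 TRT, with the genes of the list as points, filled where called (horizontal axis, log2 scale). The AP-1 targets have medians of 2.12 and 1.56, and the immediate early genes of -1.11 and -1.22.

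The genes most like Myc in pattern, by the root mean square difference of log2(CPM + 1) centred on its mean over the 11 libraries, were Kctd13 (0.186), Ern1 (0.196), Lonp1 (0.206), Llph (0.211) and Zswim7 (0.214), out of 12364 genes. Lonp1, a mitochondrial protease, was 127 to 204 CPM in MamBo89, 145 in MamBo43, 631 to 663 in MamBo43 TRT and 585 to 663 in MamBo38. Those most like Fosl1 were Lrrk2 (0.452), Zeb1 (0.570), Gsdmd (0.586), Map1a (0.593) and Ripk3 (0.596). Zeb1, a repressor of epithelial genes, was 0.175 to 1.80 CPM in MamBo89, 2.86 in MamBo43, 47.5 to 54.2 in MamBo43 TRT and 98.4 to 112 in MamBo38.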

How the data were processed

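Per the labels and the study's methods, the authors sequenced TruSeq v2 RNA libraries, which keep no strand, as 75-nucleotide single reads, aligned them to mm10 with STAR 2.5, quantified genes with RSEM 1.3.0 and deposited read counts per gene as whole numbers for the 11 libraries. The gene annotation they used is not given in the sources used here. From the deposited counts, genes were filtered by expression (minimum count 10, minimum total 15) and tested in R 4.3.3 with edgeR 4.0.16 (quasi-likelihood F-test, trimmed mean of M-values, Benjamini-Hochberg), in a fit by HER2 status, a fit with the 4 groups and a fit with each line split by treatment. The thresholds are those of the study's methods, which used DESeq2, and DESeq2 1.42.0 was an alternative. SEs are the log2 fold change over the square root of F, and 3 counts were taken as the floor. Exon lengths and overlaps came from GENCODE M21 (GRCm38), promoters from RefSeq. The fits were tested on simulated counts. The members and gene lists were chosen with earlier results of these data known. From each list, up to 4 called genes with the largest change by HER2 status and up to 2 from MamBo43 to MamBo43 TRT are named, except 1 that is not reported here. Totals of 17040454 to 27127662 counts give a floor of 0.114 to 0.179 CPM, for counting error only.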

Additional observations from a re-analysis of the deposited data

Results flagged for a closer look

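In 6 of 40 sets of libraries tested (a gene within a group of 4, 5 or 6 libraries), the highest or lowest library stood farther from the others than Dixon's 95% critical value allows, where chance gives about 1 in 20. The MamBo89 clone, replicate 1, accounts for 4 of them. Fosb was at 142 CPM there and at 870 to 903 CPM in the other MamBo89 libraries. Jund was at 88.9 CPM, against 286 to 296 CPM in the other MamBo89 libraries and 284 to 296 CPM in the other HER2-positive libraries. Fosl1 was at 6.43 CPM, against 1.03 to 1.57 CPM. In MamBo38, Fosl1 was at 471 CPM in replicate 2 and at 248 to 276 CPM in the others, and Myc was at 446 CPM in replicate 3 and at 404 to 410.3 CPM in the others.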

How the results depend on the processing

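Of 1028 values of members under an alternative, 964 kept their direction and side of the threshold, 39 lost a call, 19 gained one and 6 changed sign. Of 1137 values of the named list genes, the same counts were 1085, 40, 9 and 3. DESeq2 gave no adjusted p for Timp1 from MamBo43 to MamBo43 TRT, which is left out of these counts. By HER2 status 5 members were called, and 3 (2 higher and 1 lower) after adjustment for the library code or in the libraries of the common code alone, where the lower member was Fos in the first and Mycn in the second. The 3 MamBo38 libraries of the other code have no HER2-positive counterpart. From MamBo89 to MamBo43, 1 member was called, and 0 at an adjusted p under 0.05 or in a fit of the 2 groups alone, and 2 with DESeq2. Leaving out each library in turn gave 4 to 6 members by HER2 status, 0 to 4 from MamBo89 to MamBo43 (4 without the MamBo89 clone), 1 to 4 between MamBo43 TRT and MamBo38 (1 without MamBo43 TRT replicate 1), 0 to 5 for trastuzumab in MamBo89 and 0 to 1 for the difference between lines in the treatment effect (5 and 1 without MamBo89 replicate 2, which leaves the clone as the one untreated library). The cause was not tested.

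Signs changed for Nr4a1 by HER2 status, at 0.71 without the MamBo43 library and 0.00423 without MamBo43 TRT replicate 2 (-0.44 to 0.71 over libraries left out in turn), and for Elk1 with the tumor of origin as a covariate (0.0883). Mycl from MamBo89 to MamBo38 was at 0.10 with the library code, 0.19 without MamBo38 replicate 4, 0.10 without MamBo89 replicate 2 and 0.25 without MamBo89 replicate 4 (-0.28 to 0.25 over libraries left out). Junb between MamBo38 and MamBo43 TRT was at 0.42 with the library code, and Jund from MamBo43 to MamBo43 TRT at 0.0478 without MamBo43 TRT replicate 2 (-0.47 to 0.0478). None of these was called.

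Over all genes, asking for 10 counts in every library lowered the calls from 4052 to 2597 by HER2 status, 5772 to 3038 from MamBo89 to MamBo38, 4008 to 2462 from MamBo43 to MamBo43 TRT, 4946 to 2810 from MamBo43 to MamBo38, 2818 to 1318 between MamBo43 TRT and MamBo38 and 2604 to 1391 from MamBo89 to MamBo43, with fewer genes tested. A fit of the 2 groups alone gave 1697 from MamBo89 to MamBo43. Without MamBo89 replicate 2, 2148 genes were called for trastuzumab in MamBo89 and 731 for the difference between lines, in place of 0. DESeq2 called 29 genes for trastuzumab in MamBo89, 1 in MamBo38 and 2 for the difference, where edgeR called 0. No replicate pairs could be formed because the library names carry no replicate numbers. The trastuzumab schedule, which recurs across lines, could have served as a block but was not fitted as one. At totals of 17040454 counts or more, depth limits Mycn and Mycl.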

Other observations

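The 2 trastuzumab schedules were 1 library each in each of the 3 lines, and the following differences between them were not tested. Fos was higher after 60 days than after 30 days and 30 days without in all 3 lines, by 1.43-fold in MamBo89, 1.29-fold in MamBo43 and 1.40-fold in MamBo38. Jun was likewise higher in all 3, by 1.11-fold, 1.09-fold and 1.13-fold. Fosl2 was lower in all 3, at 0.914, 0.848 and 0.936 of its level on the interrupted schedule. Myc was lower in MamBo89 (0.609) and MamBo38 (0.912) and higher in MamBo43 (1.09). Of all 13782 genes tested, 12.4% were higher and 11% lower in all 3 lines, against 2 and 1 of the 10 members.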
